A study of Rattus norvegicus with 10 samples.

Results

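The comparison set an olive oil diet against a lard diet in rat liver. It used 4 of the 10 arrays of the study, 2 per diet, chosen by the diet named in their titles, and all 31042 probe sets that were not array controls. The animals were male Wistar rats, an outbred laboratory strain, whose age the labels do not give. Fat supplied 42% of the energy in both diets, eaten over 12 weeks, and came from olive oil in one group and from lard in the other. Rats were fasted overnight and killed with CO2, and a piece of one liver lobe was frozen. The other 6 arrays came from rats on coconut fat, fish oil (cod liver oil) or standard chow, 2 arrays each. They entered the estimate of the spread between arrays. All 10 arrays also set the offset added before taking logs and the bound for dim signals. Likewise, all 10 set which probe sets were tested and which one stood for a gene. The labels do not say whether an array held the RNA of 1 rat or of several, so a p-value here weighs a difference against the spread of these samples alone, part of which may be technical.

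Olive oil is a fat rich in the monounsaturated fatty acid oleate, whereas lard carries more saturated fatty acids. The liver makes fatty acids from acetyl-CoA through ATP citrate lyase (Acly), acetyl-CoA carboxylase (Acaca) and fatty acid synthase (Fasn), a pathway driven by the transcription factors SREBP-1c and ChREBP after feeding and held low in fasting. In fasting the liver instead burns fatty acids in mitochondria and peroxisomes, under the nuclear receptor PPAR-alpha, and exports glucose and ketone bodies.

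The values were signal intensities, and differences are given as olive oil minus lard on the log2(signal + 3.1) scale, which understates the difference of dim genes. The 4 arrays had median signals of 31.5 and 36.8 (lard 1 and 2) and 31.9 and 30.6 (olive oil 1 and 2), against 28.7 to 30.3 on the other 6. Lard 2 stood apart, with 25.9% of its probe sets at or below a signal of 12.8, compared with 28.3% to 30.2% on the other 9 arrays; 12.8 was the most that bacterial trp probe sets gave on any array, and signals up to it are called dim. The ratio of 3′ to 5′ actin control signal, a measure of RNA integrity and labelling, was 2.15 and 2.10 with lard and 2.50 and 2.75 with olive oil. The same ratio for GAPDH was 1.02 and 1.05 with lard and 1.10 and 1.19 with olive oil. The part of these differences in any result was not tested. Over the 18625 probe sets bright enough to be tested, arrays of one diet were no more alike than arrays of different diets. Pearson's r across probe sets was 0.936 between the lard arrays and 0.934 between the olive oil arrays, and 0.922 to 0.944 between a lard and an olive oil array. Defining hepatocyte markers (9 genes) were bright on all 4 arrays, with summed signals of 65527 and 67764 with lard and 75335 and 64788 with olive oil. In whole liver, fewer cells of a type and less RNA per cell cannot be told apart.

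No probe set passed the test between olive oil and lard. With limma and Benjamini-Hochberg adjustment over all tested probe sets, 0 of 18625 (0%) had an adjusted p under 0.05, and the lowest adjusted p was 0.209. At an unadjusted p under 0.05 there were 1160 probe sets (6.23%), of which 473 (2.54%) were higher and 687 (3.69%) lower with olive oil. Without lard 2 this excess of lower values was not seen: 478 were higher and 373 lower. Both arrays of one diet lay above both arrays of the other for 2929 probe sets in the direction of olive oil (15.7%) and 3521 in the direction of lard (18.9%). The coconut fat and lard diets likewise differed in 0 called probe sets, and coconut fat and olive oil in 2 (0.0107%), both higher with coconut fat. An exact permutation test of 2 arrays against 2 cannot give a p below 0.333. The values below are therefore given as values, and no gene is said to have changed.

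**Figure D1:**
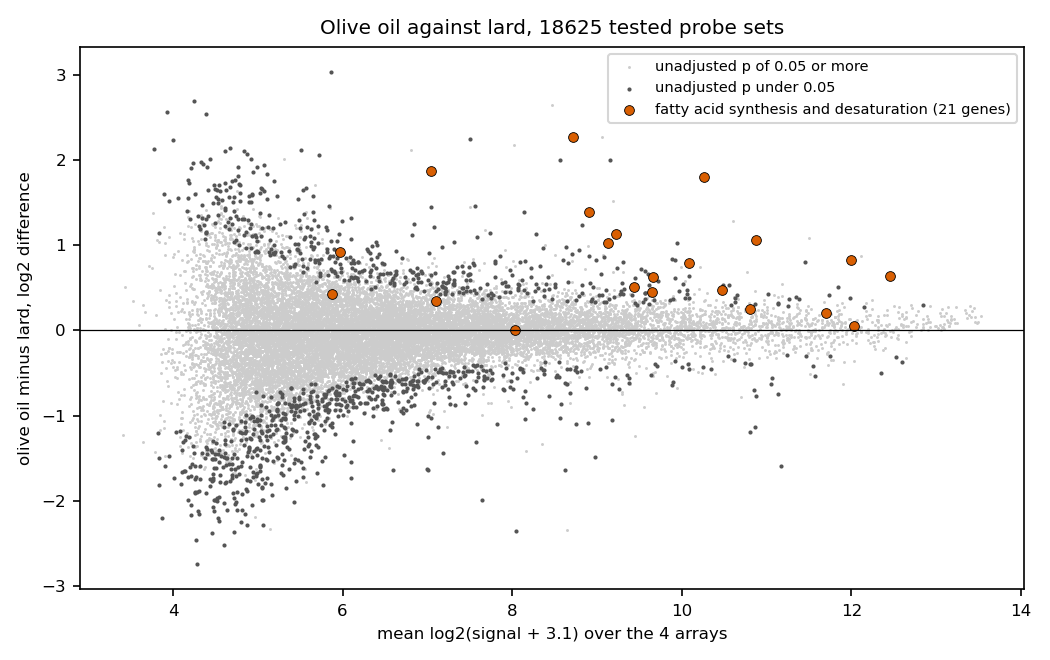
Difference between olive oil and lard (log2, y axis) against the mean level over the 4 arrays (log2(signal + 3.1), x axis) for 18625 probe sets, grey dots. Dark dots have an unadjusted p under 0.05 (1160), and the 21 genes of fatty acid synthesis and desaturation, orange, all lie at or above 0 and mostly well above it.

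Large differences sat among dim probe sets. Among the dimmest of 3 equal groups of probe sets by mean level, with a median signal of 29.4, 13.1% of probe sets differed by more than 1 on the log2 scale, against 1.68% in the middle group and 0.789% in the brightest group, whose median signal was 299. In the brightest group, 181 probe sets were higher and 161 lower at an unadjusted p under 0.05.

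The genes of fatty acid synthesis and desaturation stood on one side of lard. All 21 tested genes of the list had a difference above 0, and for 15 both olive oil arrays were above both lard arrays; over all 10383 genes, 48.3% were above 0 and 16.4% had olive oil arrays above lard. The median difference was 0.64, against -0.01 over all genes. None was called, and 4 (Mid1ip1, Acaca, Elovl6 and Pnpla3) had an unadjusted p under 0.05, where the background was 2.48% of genes. The list was chosen with earlier results of these data known, so its direction is a description. Under quantile normalization 20 of the 21 were above 0 and the median was 0.58. The median was 0.42 without olive oil 2 and 0.90 without olive oil 1.

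Fasn, which builds palmitate, had signals of 823 and 521 on the lard arrays and 1386 and 3788 on the olive oil arrays (mean 672 ± 214 and 2587 ± 1699, SD, n = 2). Both olive oil arrays were above both lard arrays, and olive oil 2 was far above olive oil 1. The difference was 1.80 on the log2 scale (95% CI -0.76 to 4.36), with an adjusted p of 0.851 by limma. Its second probe set gave 2.27. Acaca, which makes the malonyl-CoA that Fasn uses, had 286 and 304 with lard and 615 and 978 with olive oil. The groups did not overlap, and the difference was 1.39 (SE 0.49, adjusted p 0.744 by limma); its other probe set gave 1.22. Acly, which supplies cytosolic acetyl-CoA, had 1249 and 1346 with lard and 1638 and 4488 with olive oil, again with olive oil 2 highest. Its difference was 1.06 (95% CI -0.44 to 2.57). Me1, the malic enzyme that supplies NADPH, had 398 and 384 with lard and 525 and 1217 with olive oil. Mid1ip1, which helps assemble acetyl-CoA carboxylase into its active polymer, had 408 and 393 with lard and 655 and 1181 with olive oil, a difference of 1.13 (SE 0.26, adjusted p 0.675 by limma).

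Pnpla3, a lipid droplet protein of the patatin-like family, showed the largest difference of the list. Its signals were 168 and 209.6 with lard and 479.9 and 1767 with olive oil, with no overlap, and the difference was 2.28 (95% CI 0.03 to 4.52, adjusted p 0.800 by limma). Its other probe sets gave 2.65 and 1.44. Elovl6, which lengthens palmitate to stearate, had 66.5 and 65.8 with lard and 124 and 499 with olive oil. The second Elovl6 probe set gave 0.75. Of the regulators, Srebf1, which encodes SREBP-1, had 1264 and 1162 with lard and 1441 and 1959 with olive oil (0.47), whereas Mlxipl, which encodes ChREBP, had overlapping values of 132 and 107 with lard and 122.5 and 188 with olive oil. Among the desaturases, Scd, the stearoyl-CoA desaturase that makes oleate, had 5184 and 3915 with lard and 7078 and 6928 with olive oil (0.64, 95% CI -1.16 to 2.43). The polyunsaturated fatty acid desaturases Fads1 and Fads2 overlapped between the diets, with differences of 0.21 and 0.25; both were below 0 (-0.11 each) without lard 1.

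These genes were spread widely between the olive oil arrays and between the chow arrays. Olive oil 2 was above olive oil 1 for 16 of the 21 genes, with a median gap of 0.61, while the lard arrays differed by a median of -0.05 and chow 2 lay above chow 1 for 20 of the 21 genes by a median of 1.57. Fasn differed 10.1-fold and Scd 10.2-fold between the chow arrays. Over all genes the corresponding medians were between -0.02 and 0.01. For some genes the fish oil or coconut fat arrays also lay far apart. Fasn had 59.6 and 753 with fish oil and 1842 and 580 with coconut fat, and Pnpla3 had 399 and 24.4 with coconut fat. Fads1, in contrast, had 1915 and 1746 with fish oil. When the fit used only the 4 olive oil and lard arrays, 15 of the 21 genes had an unadjusted p under 0.05, all higher with olive oil, where the background was 2.33% of probe sets. Their adjusted p-values in that limma fit were still 0.506 or more. Acaca had the smallest, with an SE of 0.22 there against 0.49 in the fit of all arrays.

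**Figure D2:**
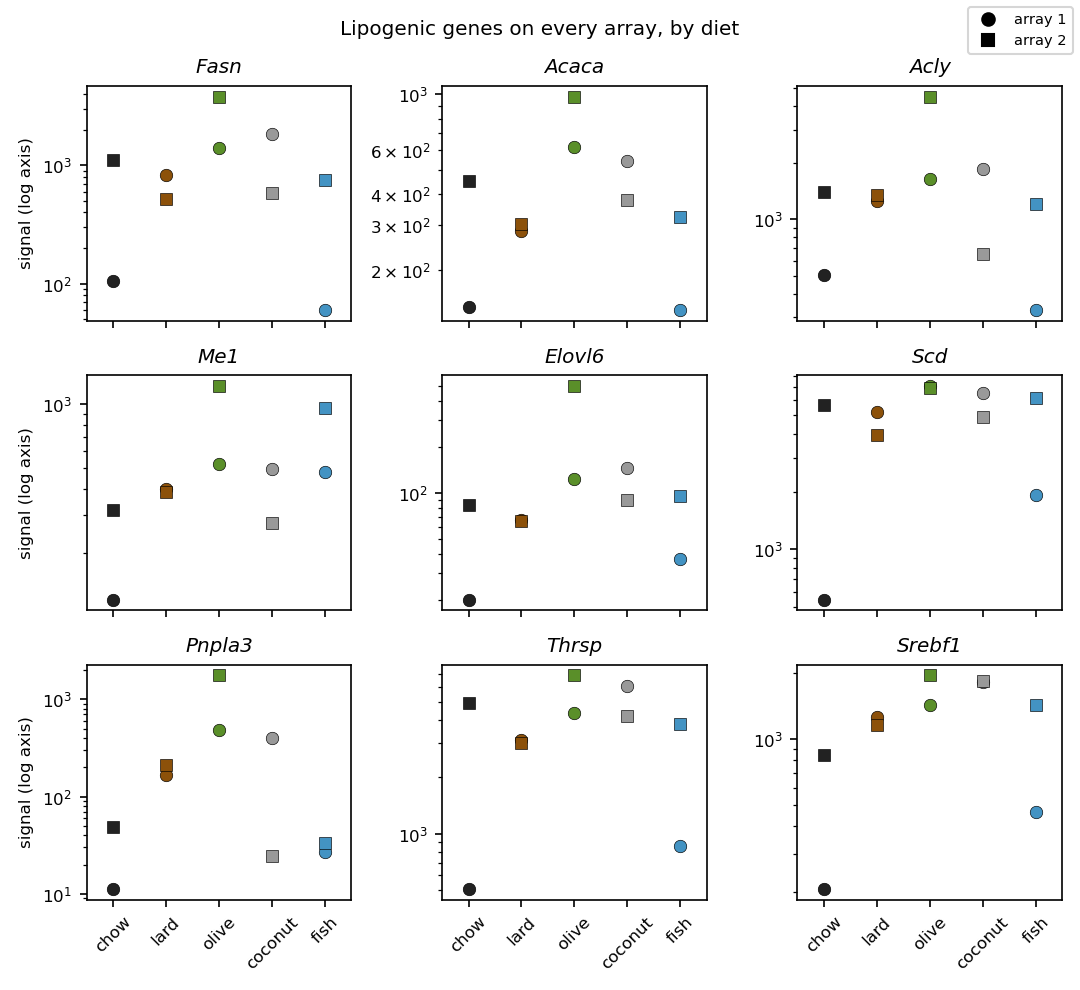
Signal (log axis) of 9 lipogenic genes on each array, by diet; circles are array 1 and squares array 2 of a diet. For Fasn, Acaca, Acly, Me1, Elovl6, Pnpla3, Thrsp and Srebf1, olive oil 2 is the highest of the 10 arrays, and the chow arrays lie far apart.

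Promoter windows, from 250 bases before to 50 after the start, are shown for 3 of these genes to let the region be read beside the values; the genes were picked after their values were seen, and the sequences are from RefSeq (GRCr8). Windows were tabulated for 18 of the 21 genes. Capitals mark the CCAAT box, the NF-Y motif (CCAAT or ATTGG on the printed strand), the only one of the searched motifs found in these 3 windows.
Pnpla3, chr7:117173278-117173577, plus strand: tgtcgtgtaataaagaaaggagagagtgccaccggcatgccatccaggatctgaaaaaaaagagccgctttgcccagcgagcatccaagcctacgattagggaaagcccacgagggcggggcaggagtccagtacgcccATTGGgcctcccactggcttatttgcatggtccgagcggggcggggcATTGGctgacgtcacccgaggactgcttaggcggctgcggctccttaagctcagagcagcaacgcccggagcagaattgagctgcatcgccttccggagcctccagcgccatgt
Acly, chr10:85963582-85963881, minus strand: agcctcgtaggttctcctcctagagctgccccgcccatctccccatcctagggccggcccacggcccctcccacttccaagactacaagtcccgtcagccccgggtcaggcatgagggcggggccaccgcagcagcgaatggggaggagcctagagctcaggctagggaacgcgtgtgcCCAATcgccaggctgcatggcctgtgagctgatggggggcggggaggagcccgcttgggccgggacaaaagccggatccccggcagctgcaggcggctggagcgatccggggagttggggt
Thrsp, chr1:161138915-161139214, minus strand: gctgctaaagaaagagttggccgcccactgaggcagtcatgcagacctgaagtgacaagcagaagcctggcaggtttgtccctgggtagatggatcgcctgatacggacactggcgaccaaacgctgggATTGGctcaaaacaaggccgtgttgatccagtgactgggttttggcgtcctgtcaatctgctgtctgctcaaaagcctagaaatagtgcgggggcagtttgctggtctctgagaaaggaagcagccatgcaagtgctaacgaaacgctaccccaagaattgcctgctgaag
A CCAAT box was present for 11 of the 18 genes, and 37.5% of all 33465 promoter windows hold one. None was found in the windows of Mid1ip1 (log2 difference 1.13) and Me1 (1.03), which differed more than Thrsp (0.83). The sterol regulatory element TCACNCCAC was in none of the 18 and in 1.12% of all windows, and the E-box CACGTG was in 1 (Elovl5) and in 6.42% of all windows; both strands were searched. A match describes letters only. Thrsp, a lipogenic protein that responds to thyroid hormone, had signals of 3129.6 and 3013 with lard and 4342 and 6886 with olive oil.

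Cholesterol synthesis genes were mixed. Of 22 genes, 15 were above 0 and 7 below, 3 had olive oil arrays above lard (16.4% of all genes did) and 1 below (17.8%), and the median was 0.15, with values of -0.04 without lard 1 and 0.42 without olive oil 1. Scap, the chaperone that escorts SREBP proteins, had 107 and 152 with lard and 164 and 215 with olive oil (0.55; second probe set 0.36, overlapping). Insig1, which retains them in the endoplasmic reticulum, had overlapping values of 1086 and 1743 with lard and 1658 and 2967 with olive oil.

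Genes of fatty acid oxidation lay mostly on the other side. In mitochondria, 18 of 20 genes were below 0, 11 had both olive oil arrays below both lard arrays (17.8% of all genes did), and the median was -0.20. None was called, and 3 were lower at an unadjusted p under 0.05 (3.23% of all genes were). The median was -0.07, with 13 of 20 below 0, without olive oil 2. Cpt2, the inner-membrane carnitine palmitoyltransferase, had 651 and 626 with lard and 487 and 462 with olive oil, a difference of -0.43 (SE 0.15, adjusted p 0.744 by limma). Eci1, an isomerase needed for unsaturated fatty acids, had 2390.3 and 2529 with lard and 1801 and 1152 with olive oil. Cpt1a, the gatekeeping step, had 2749.5 and 2842 with lard and 2615 and 2245 with olive oil (-0.21, 95% CI -0.75 to 0.34). In peroxisomes, 12 of 15 genes were below 0 and 8 had olive oil arrays below lard, with a median of -0.29 that was -0.12 without lard 2. Pex11a, which drives peroxisome division, had 464 and 435 with lard and 284 and 242 with olive oil (-0.77, SE 0.25), and its second probe set gave -1.25. By the first probe set, Pex11a had 283 and 292 with coconut fat, 283.5 and 157 with chow and 621.5 and 803 with fish oil. Lard thus lay above coconut fat and chow too. Ehhadh, the bifunctional enzyme, had 2397 and 2526 with lard and 2238 and 1736 with olive oil.

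Other PPAR-alpha targets were divided. Of 17 genes, 7 were above 0 and 10 below, with a median of -0.05. Cyp4a1, a fatty acid omega-hydroxylase, had 2852.5 and 2983 with lard and 2371.5 and 1266 with olive oil (-0.75). Pdk4, the kinase that shuts off pyruvate dehydrogenase in fasting, lay the other way, with 741 and 673 with lard and 1153 and 1386 with olive oil (0.84, SE 0.26, adjusted p 0.684 by limma; second probe set 0.98). Fgf21, a fasting hormone of the liver, overlapped between the diets (102.5 and 62.4 with lard, 86.0 and 196 with olive oil). Of 4 ketone body genes, 3 were below 0.

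Single genes with the smallest p-values were mostly dim or came from unrelated functions. The highest ranked gene was Plcb3, a phospholipase C of receptor signalling, with 58.1 and 66.1 with lard and 9.2 and 11.3 with olive oil. Both olive oil arrays were below the dim bound, so the difference was at least 4.84-fold, and the adjusted p was 0.209 by limma; the other 6 arrays gave 57.0 to 91.1. Ubox5, a ubiquitin ligase, had 12.1 and 14.5 with lard against 59.0 and 58.9 with olive oil (1.92, adjusted p 0.236 by limma). Its coconut fat, fish oil and chow arrays gave 41.5 to 56.0, so lard was the low diet there; a second probe set gave 0.51 with overlapping arrays. Rprm, a cell cycle arrest gene, had 86.9 and 67.4 with lard and 205 and 223 with olive oil (1.45, SE 0.25). Tma16 was dim on both lard arrays, which gave at least 2.65-fold.

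Brighter genes that lay higher with olive oil included Egfr, the epidermal growth factor receptor, with 571 and 826 with lard and 1329.7 and 1468 with olive oil (1.02, SE 0.20, adjusted p 0.504 by limma). Its other probe sets gave 0.58 and -0.27, so the gene's probe sets disagreed. Efna1, an ephrin ligand, had 335 and 425 with lard and 681 and 665 with olive oil (0.83), Ptprb, a phosphatase of endothelial cells, had 233 and 194 with lard and 385 and 365 with olive oil (0.81), and Mettl7b, a lipid droplet methyltransferase, had 641 and 585 with lard and 1066 and 886 with olive oil (0.66). Smarca2, Camlg, Bet1l and Panx1 completed the 12 highest ranked genes; second probe sets of Smarca2 (0.15) and Bet1l (0.16) overlapped between the diets.

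Brighter genes that lay lower with olive oil included Gpt, alanine aminotransferase, which had 813 and 847 with lard and 346 and 459 with olive oil (-1.05, SE 0.19, adjusted p 0.387 by limma). Its signal was 1958 and 2004 on the chow arrays and 1326 and 1326.5 with coconut fat, so olive oil was the lowest of the diets on both arrays. Nr1i3, the drug-sensing receptor CAR, had 227 and 221 with lard and 74.3 and 65.3 with olive oil (-1.64, SE 0.35, adjusted p 0.675 by limma), and the other 6 arrays ranged from 131 to 436. Slc13a4, a sulfate transporter, had 438 and 397 with lard and 211 and 226 with olive oil (-0.92). Akr1c13, of an aldo-keto reductase family with near-identical members that a probe set may not separate, had 2713.5 and 2565 with lard and 1739 and 1656.5 with olive oil (-0.64). Mup5, also of such a family, gave -1.50 by one probe set and -0.56 by its brightest. Acin1 gave -1.08, with 129 and 144 with lard and 58.8 and 67.0 with olive oil, but its other probe sets gave 0.12 and 0.04. The coconut fat, fish oil and chow arrays gave 1322 to 2153 for Akr1c13 and 53.8 to 92.3 for the first Acin1 probe set. Lard was thus the high diet for both. Mapt, Ucn, Cd9, Camkk1 and Tspan18 had signals of 4.1 to 23.8 with olive oil; for Ucn and Tspan18, dim on both olive oil arrays, the difference was at least 3.30-fold and 3.34-fold. Other probe sets of Mapt gave -0.74 and 0.49, with overlapping arrays.

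**Figure D3:**
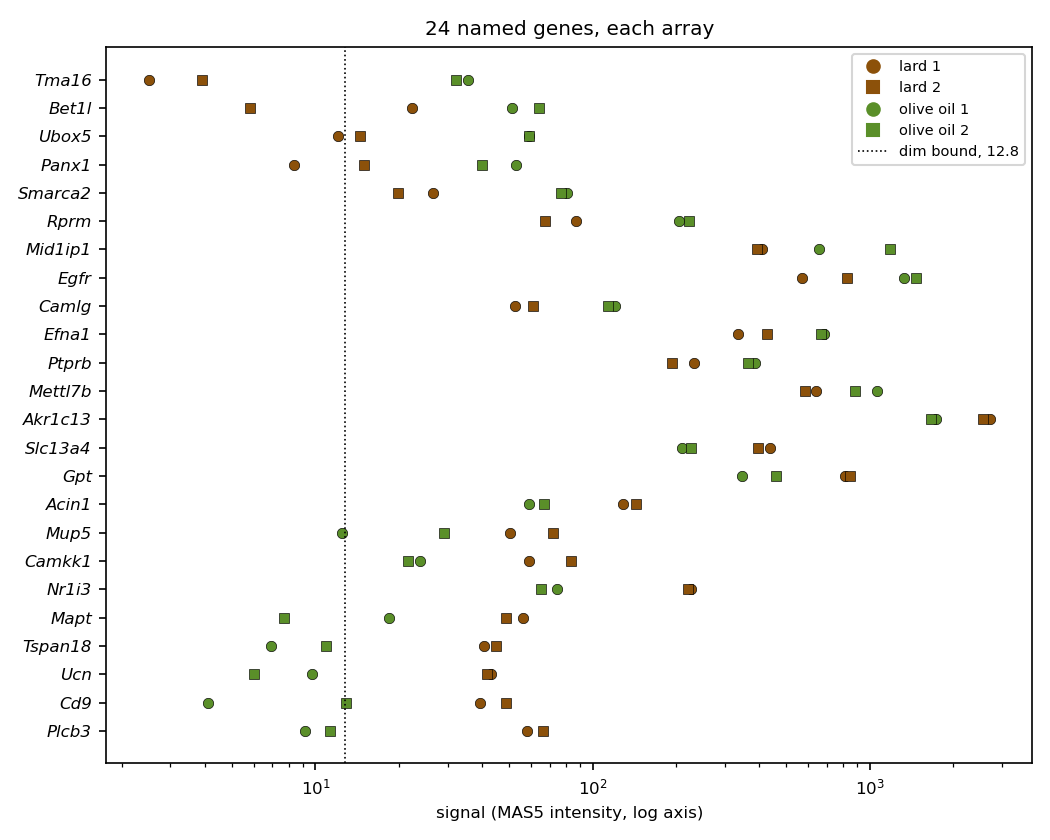
Signal on each of the 4 arrays (log axis) for 24 genes, the 12 in each direction with the smallest unadjusted p among those whose arrays did not overlap between the diets; brown is lard and green olive oil, circles array 1 and squares array 2. The separation of the diets was thus set by the choice of genes; Plcb3, Ucn and Tspan18 lie below the dotted dim bound of 12.8 on both olive oil arrays, and Tma16 on both lard arrays.

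Genes of amino acid breakdown were divided, with 12 of 33 above 0 and 21 below. The split depended on the lard arrays: 18 were above and 15 below without lard 1, and 9 and 24 without lard 2. Prodh, proline dehydrogenase, had 737 and 689 with lard and 509.6 and 465.5 with olive oil (-0.55). In gluconeogenesis and glycogen metabolism 14 of 16 were above 0, none at an unadjusted p under 0.05, with a median of 0.22 that was 0.12 without lard 2 or without olive oil 1. Without lard 2, and under quantile normalization, 10 of the 16 were above 0. Pck1, the rate-limiting enzyme, had overlapping values of 6540.5 and 6311 with lard and 7442 and 5939.8 with olive oil.

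The list of endoplasmic reticulum and amino acid stress, which holds chaperones of protein folding and genes of the stress branches, had 20 of 26 genes above 0. In 11 both olive oil arrays were above both lard arrays (16.4% of all genes), and 7 were higher at an unadjusted p under 0.05 (2.48% of all genes). The median was 0.26 and stayed between 0.16 and 0.32 with each array left out. Hsp90b1, the chaperone GRP94, had 1351 and 1161.5 with lard and 1853.5 and 1765.5 with olive oil (0.53, SE 0.13, adjusted p 0.675 by limma). Sdf2l1, Pdia4, Dnajc3, Pdia6, Calr and Pdia3, all chaperones or folding enzymes of that compartment, completed the 7. Sdf2l1 had 222.5 and 222.7 with lard and 345 and 303 with olive oil. The coconut fat, fish oil and chow arrays gave 1448 to 2158 for Hsp90b1 and 300 to 449 for Sdf2l1, so lard was the low diet for both. Atf4, Ddit3 and Trib3, markers of the stress branch, were 0.21, -0.07 and -0.14.

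The list of interferon response and antigen presentation was divided. Of 30 genes, 12 were above 0 and 18 below, and the median of -0.07 was 0.31 without lard 1, on which Isg15 (196 against 36.4 on lard 2) and Usp18 (341 against 92.4) were high. The 4 genes with an unadjusted p under 0.05 were all of class II antigen presentation and all higher with olive oil, where 2.48% of all genes were. RT1-Da had 439 and 361 with lard and 729.9 and 723 with olive oil (0.86, SE 0.22), and Cd74, the invariant chain, had 569.8 and 619.9 with lard and 974 and 955 with olive oil (0.70). RT1-Ba (1.10) and RT1-Bb (3.04) completed the 4, and RT1-Bb was at 2.3 on lard 1. Markers of Kupffer cells and macrophages, which carry class II genes, summed to 5116 and 4568 with lard and 5379.7 and 4497 with olive oil over 12 genes; their part in the result was not tested.

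Of 36 drug-metabolising genes 22 were below 0, and of 18 sex-dependent genes 14 were, beside 5366 of all 10383 genes. At an unadjusted p under 0.05, 4 genes of each list were lower, where 3.23% of all genes were. Both counts depended on olive oil 2: without it 14 of the 36 and 10 of the 18 were below 0, and the medians went from -0.08 to 0.12 and from -0.33 to -0.10. Cyp3a9 had 562 and 703.5 with lard and 404 and 212 with olive oil (-1.10, SE 0.26, adjusted p 0.675 by limma). Cyp2e1, an ethanol-oxidising enzyme of the pericentral zone, had 5805 and 6621 with lard and 3830.1 and 5045 with olive oil (-0.50). Of the 12 stellate cell and fibroblast genes tested, 5 were above 0 and 7 below, with a median of -0.24. Both olive oil arrays were above both lard arrays for 4 (16.4% of all genes) and below them for 5 (17.8%). At an unadjusted p under 0.05, Reln, Dcn and Col3a1 were higher with olive oil, where 2.48% of all genes were, and none was lower. The summed signal of the 13 listed genes on the array was 1444 and 1290 with lard and 1481 and 1593 with olive oil. Lipoprotein genes were above 0 in 17 of 20, among them Abca1, the cholesterol exporter, with 148 and 367.5 with lard and 502 and 418 with olive oil (0.96; 0.32 without lard 1 and 1.61 without lard 2). Its other probe sets gave 0.75, 0.64 and 0.05, the last 2 with overlapping arrays. Under quantile normalization 11 of the 20 were above 0.

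Some genes depended on 1 array. Mt2A, a metal-binding metallothionein, had 793 and 896.5 with lard and 498 and 177.5 with olive oil (-1.49), and Gstm2, a glutathione transferase, had 2791.5 and 2699 with lard and 2380.4 and 651 with olive oil (-1.14). Both were called by limma only without olive oil 1, with adjusted p-values of 0.0469 and 0.00637, together with 1 unnamed probe set. Without lard 2, the differences of Mst1, RT1-A and RT1-Bb were 3.81, 3.09 and 4.95. Mst1 had 77.9 and 990 with lard and 1038 and 1245 with olive oil, so only lard 1 was low. RT1-A had 32.1 and 339 with lard and 250 and 349 with olive oil. Without olive oil 2, Car3 gave -1.71 and -2.09 by its probe sets, Gtpbp3 -3.48 and 1 unnamed probe set -2.62. The first Car3 probe set had 4113 and 5497 with lard and 1452 and 6501 with olive oil. The fit of the 4 arrays alone called 3 probe sets (0.0161%) and gave 3.07% lower at an unadjusted p under 0.05. Zfp354a was called lower, with 764 and 467 with lard and 112 and 116 with olive oil, and 2 unnamed probe sets were called higher. On the arrays left out of that fit, Zfp354a had 120 and 700 with fish oil, 453.5 and 202 with chow and 1205 and 1250 with coconut fat.

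The remaining metabolic and inflammatory lists are given by their counts. Of all genes, 48.3% were above 0. Fatty acid uptake and binding had 12 of 21 genes above 0, triglyceride synthesis and lipid droplets 16 of 26, and bile acid synthesis and transport 7 of 22. Acute phase and inflammation had 22 of 31, the respiratory chain 25 of 37, insulin and IGF signalling 14 of 25 and antioxidant genes 16 of 32. Under quantile normalization the respiratory chain had 16 of 37 and acute phase and inflammation 18 of 31. Without olive oil 2 the bile acid list had 12 of 22. Cd36, a fatty acid uptake receptor, had overlapping values of 504 and 228 with lard and 609.6 and 369 with olive oil (0.48, 95% CI -0.46 to 1.43). Cyp7a1, the rate-limiting enzyme of bile acid synthesis, overlapped at 304 and 195 with lard and 199.8 and 181 with olive oil. Akr1d1, a later enzyme of that pathway, had 3974 and 1846 with lard and 1524 and 910.4 with olive oil (-1.20, SE 0.48), and the lard arrays lay far apart. Its second probe set gave -0.36 with overlapping arrays. Nr1h4, the bile acid receptor FXR, had 759 and 554 with lard and 788 and 983.5 with olive oil (0.44). Igfbp1, a fasting-responsive binding protein, had 247 and 314.5 with lard and 260.5 and 89.4 with olive oil (-0.85, 95% CI -2.56 to 0.85). Foxa2, a liver transcription factor, had 251 and 235.5 with lard and 396 and 431 with olive oil (0.76, SE 0.26). Of the 23 key genes tested, 16 were above 0, 8 had olive oil arrays above lard (16.4% of all genes did), 3 below (17.8%) and 12 overlapping. None was called by limma, and Elovl6, Pnpla3 and Pdk4 were higher at an unadjusted p under 0.05 (2.48% of all genes).

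Blood markers were uneven between the olive oil arrays. The summed signal of the 5 red blood cell genes on the array was 7393 and 7136 with lard and 10187 and 5504 with olive oil, and that of 9 sinusoidal endothelial genes was 2248.5 and 2521 with lard and 2623 and 2861 with olive oil. Adipocyte, pancreas, muscle and mesothelium lists had 3 or 4 tested genes each. At an unadjusted p under 0.05 none was higher (2.48% of all genes were) and 1 was lower (3.23% of all genes were). That gene was Lipe, hormone-sensitive lipase, with 152 and 257 with lard and 117 and 109.6 with olive oil (-0.79, second probe set 0.46).

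**Figure D4:**
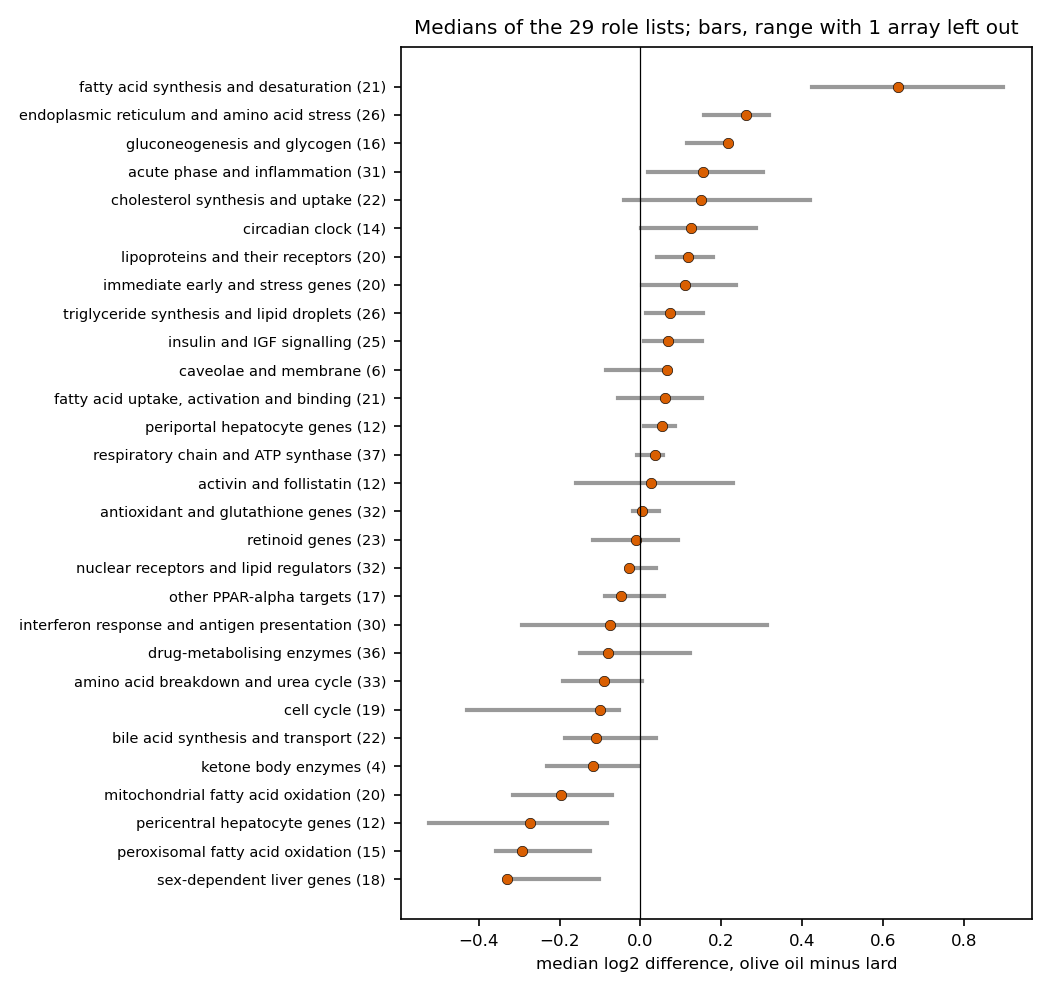
Median log2 difference, olive oil minus lard (orange), of the 29 gene lists, with the range when 1 of the 10 arrays is left out (grey bars) and the number of genes tested in brackets. Fatty acid synthesis and desaturation lies at 0.64, the oxidation lists at -0.20 and -0.29.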

How the data were processed

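Rat livers were profiled on 10 arrays, 2 per diet. The values deposited by the authors are signal intensity on a linear scale made with MAS5, per the submitters' processing notes; its version is not given in the sources used here. Array controls (57 of 31099 probe sets) were dropped. Values became log2(signal + 3.1), the offset being the 10th percentile, and 18625 probe sets were tested once the dimmest 40% by mean level had been set aside. The number of arrays limits the precision. Symbols came from the platform annotation (20826 probe sets with 1, 436 with several, 9780 with none).

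The 10 arrays entered a linear model of diet in limma 3.58.1 (R 4.3.3) and an intensity trend (5 residual and 5.96 prior degrees of freedom). P-values, two-sided, were adjusted by Benjamini-Hochberg over the tested probe sets at 0.05, and confidence intervals are 95%. A gene with both arrays of a diet at or below 12.8 is given as a bound, the geometric mean of the other diet over 12.8. Lists used each gene's brightest probe set. Named genes were the 12 in each direction with the smallest p among genes whose arrays did not overlap, since none passed, up to 2 members of each list, and a set of key genes. The fitting script was tested on simulated data. The members and lists were chosen with earlier results of these data known.

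Other settings were a threshold of 0.10, a robust trend or none, quantile normalization or an equal 75th percentile, 60% or none left out as dim, a floor in place of the offset or a 25th-percentile one, the 4 arrays alone, the replicate number as a block, the mean over a gene's probe sets, and each array left out.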

Additional observations from a re-analysis of the deposited data

How the results depend on the processing

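No probe set was called between olive oil and lard in any planned setting that kept all 10 arrays; 3 were called with the 4 arrays alone, and with each array left out the count ranged from 0 to 4. The count at an unadjusted p under 0.05 was 473 higher and 687 lower; without a dim filter it was 753 and 1205, with 60% left out 403 were lower, and with each array left out it ranged from 367 to 660 higher and from 373 to 991 lower. Under quantile normalization the split was 591 higher and 634 lower. Between coconut fat and lard (0 called), quantile normalization called 2, an equal 75th percentile 1 and a threshold of 0.10 called 2, and the range with each array left out was 0 to 2. Between coconut fat and olive oil (2 called), an offset at the 25th percentile called 1, no dim filter 1 and no trend 0, and the range was 0 to 2. With the replicate number as a block 0 were called, with 453 higher and 697 lower at an unadjusted p under 0.05; same-numbered arrays did not deviate together (correlation -0.00061 for olive oil and lard, -0.03 to 0.08 over the 10 pairs of diets, 0 over 0.1). The list medians ranged, with each array left out, from -0.32 to -0.071 in mitochondrial and from -0.36 to -0.12 in peroxisomal oxidation, from 0.42 to 0.90 in fatty acid synthesis and from 0.16 to 0.32 in the endoplasmic reticulum list, which was 0.29 at an equal 75th percentile. Of 41 lists, 16 kept the sign of their median in every setting run. Of 118 named gene entries, 98 kept their sign in every setting run and 20 did not. Pck1 was -0.032 under quantile normalization and Pparg -0.00029 with an offset at the 25th percentile. With each array left out, log2 differences that changed sign ranged as follows: Slc16a1 -0.33 to 0.076, Ppp1r3b -1.11 to 0.084, Cav2 -0.41 to 1.05, Smad6 -0.17 to 0.80, Hsd17b13 -0.030 to 0.58, Spp1 -1.03 to 2.55, Krt19 -0.26 to 0.67, S100a9 -1.002 to 0.59, Slc4a1 -1.36 to 0.29, Alas2 -0.79 to 1.12, Cpb1 -0.39 to 1.71, Ckm -0.93 to 0.14, Msln -1.35 to 0.43, Fads1 -0.11 to 0.52, Fads2 -0.11 to 0.62, Cd36 -0.087 to 1.05, Sqle -1.30 to 0.15, Pck1 -0.11 to 0.21, Pparg -0.90 to 0.99, Inhba -0.37 to 0.075. The cause was not tested. Signals near background limit the dim genes most.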
